A study of Bos taurus with 48 samples.

Results

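Troponin is the calcium switch of the thin filament in striated muscle, and the genes described here are the slow, fast and cardiac isoforms of its 3 subunits: TNNT1, TNNT2 and TNNT3 (troponin T), TNNI1, TNNI2 and TNNI3 (troponin I), and TNNC1 and TNNC2 (troponin C). A probe was taken as a member when the gene name, or the symbol in parentheses in the probe description, of the deposited feature files was one of these 8 symbols. Of the 8 genes, 6 had a probe on the array by this rule, out of 19744 genes named there. These were TNNT1, TNNT2, TNNT3, TNNI3, TNNC1 and TNNC2, each with 1 probe printed as 2 spots. TNNI3 stood in the files under the locus name LOC511094 and TNNC2 under LOC615428, with the symbol in the description, and the gene numbers in these locus names matched the same symbols in RefSeq. No probe carried the symbol TNNI1 or TNNI2, so the slow and fast isoforms of troponin I were not analysed here.

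Troponin C binds calcium, troponin I holds the filament off until calcium arrives, and troponin T ties both to tropomyosin. Mammals carry a slow skeletal, a fast skeletal and a cardiac gene for troponin T and for troponin I. For troponin C there is 1 fast skeletal gene, TNNC2, while TNNC1 serves both slow skeletal fibres and the heart. TNNT2 and TNNI3 are the forms of the adult heart, and TNNT2 is known to be made in embryonic skeletal muscle as well. The RefSeq cattle annotation (assembly ARS-UCD2.0) placed TNNT1 directly beside TNNI3, with 0 protein-coding genes between them. TNNT2 lay close to TNNI1, with 1 coding gene between, and TNNT3 close to TNNI2, with 2.

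Total RNA of longissimus muscle, a back muscle, was measured in biopsies of 35 cattle. Piedmontese × Hereford and Wagyu × Hereford crosses, labelled Piedmontese and Wagyu, were each sampled at 60, 135 and 195 days of gestation, at birth, and at 3, 7, 12, 20, 25 and 30 months of age. Adult Belmont Red cattle on a weight loss or a weight growth diet were biopsied at diet times 0, 1 and 2 of a study of nutritional deprivation and re-alimentation. Each of the 48 2-colour arrays set the 2 crosses, or the 2 diets, of 1 time point against each other, which gave 96 channels. At 60 days each cross was a single fetus measured on 3 arrays. The groups held 3 Piedmontese and 2 Wagyu fetuses at 135 days, 2 and 3 at 195 days, and 3 and 3 calves at birth. After birth 5 Piedmontese and 4 Wagyu animals were biopsied repeatedly (1 Piedmontese only at 7 months), 4 of each cross at every age except 12 months, when there were 4 and 2. Each diet had 4 animals at time 0, weight loss had 3 and weight growth 4 at time 1, and both had 2 at time 2.

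All values are log2 intensities after background correction and normalisation, averaged per animal and time point. They compare samples for 1 probe and say nothing on which of 2 isoforms was more abundant, because probes differ in brightness. Differences are fitted values from limma with a dye term, an animal block and 1 spread shared by all 26 conditions, and p-values are two-sided and adjusted by the Benjamini-Hochberg method over 14739 genes, with a threshold of 0.05. The red dye read higher than the green by 0.81 log2 units for TNNC2, 0.66 for TNNC1, 0.48 for TNNT3, 0.44 for TNNT1, 0.12 for TNNT2 and 0.07 for TNNI3. Fitted differences take the dye out, whereas the values of single animals do not. At 60 days each cross had 1 fetus, so SEs and p-values of the step to 135 days rest on the spread within other conditions. They do not measure the spread among fetuses of 60 days. In whole muscle, fewer cells of a type and less RNA per cell cannot be told apart.

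Between 49.9% and 72.8% of spots per array were well above background in the green channel and between 55.1% and 76.4% in the red. Of the members, 5 were well above background in all 96 channels, and TNNT2 in 79. For TNNC2, 6 of 192 spot readings were saturated, and none for the other members. The arrays lay on 12 slides. Slide and stage could not be told apart for birth against 3 months, 20 against 25 months, or fetal against post-natal muscle. The 3 diet times each had a slide of their own. Heart muscle markers were low after birth: NPPB, MYL7 and NPPA were above background in no channel at birth or in the diet animals, and the summed level of the 6 heart markers on the array was 1011 to 1182 at birth, 1089 to 1560 from 3 to 30 months and 1985 to 102147 in the fetal channels. At 135 days, leaving out the library GP672 described below, this sum was mainly MYL7, at a mean of 16.08 log2 units. The other heart markers averaged from 6.70 (NPPA) to 8.37 (MYBPC3) there.

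The library GP672 went against its label. This Piedmontese sample of 135 days was measured in 1 channel, and its summed skeletal muscle markers (ACTA1, CKM, DES, TTN, MYBPC1 and RYR1) came to 7108 against 175421 to 342143 in the other 5 channels of that age. Its adipocyte markers (5 on the array, FABP4 and CIDEC among them) summed to 144344 against 1338 to 11030, though LEP, also listed, was only 0.12 log2 units above the others. Blood markers (460004 against at most 216725) and smooth muscle markers (135893 against at most 82295) were above the other channels too. So were connective tissue, immune and endothelial markers, while heart and nerve markers were below. ACTA1, skeletal actin, was 7.20 log2 units below the mean of the other libraries of that age, and FABP4, a fatty acid carrier of fat cells, 5.83 above it. GP672 stood at 8.98 for TNNT1, where the other 4 animals of that age averaged 13.41 ± 0.17 (SD, n = 4). It was at 12.44 for TNNT3 (others 16.78 ± 0.20) and at 12.64 for TNNC2 (others 18.07 ± 0.40). TNNC1 read 12.34 (others 16.35 ± 0.08) and TNNT2 7.26 (others 10.23 ± 0.13). TNNI3 was the exception, at 10.99 against 9.43 ± 0.08. The other 5 troponins were therefore low in this library. Its values enter the 135 day means and widen the shared error of every comparison, so results are given with all libraries and without GP672.

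The 60-base probes are shown because the isoforms of a subunit are related genes and the comparison rests on each probe reading its own. Probes were compared with other probes on the array and not with transcripts, so whether each reads its own isoform alone was not tested. The slow and fast isoforms of troponin I had no probe and could not enter this comparison. Capitals mark the longest run of bases that a probe has in common with another member's probe.
TNNT1: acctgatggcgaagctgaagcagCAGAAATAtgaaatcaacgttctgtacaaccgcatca
TNNT3: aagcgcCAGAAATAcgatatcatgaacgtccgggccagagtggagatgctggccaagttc
TNNT2: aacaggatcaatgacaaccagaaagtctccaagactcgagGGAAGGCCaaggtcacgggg
TNNI3: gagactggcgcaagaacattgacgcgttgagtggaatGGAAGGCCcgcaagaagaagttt
TNNC2: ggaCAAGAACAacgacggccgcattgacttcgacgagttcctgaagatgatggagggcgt
The slow and fast troponin T probes had a run of 8 bases in common, as had the TNNT2 and TNNI3 probes, and the run in the TNNC2 probe is also in that of TNNI3. At the best alignment without gaps, pairs of member probes matched at 18 to 27 of 60 bases. None of the other 21469 probes on the array had a run of 20 bases in common with a member probe, the longest such runs being 11 to 13 bases. The 2 spots of a probe differed by a median of 0.104 (TNNC1) to 0.259 (TNNT3) log2 units.

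Slow troponin T rose from 135 days of gestation through birth to a plateau. TNNT1 stood at 13.18 and 13.68 in the Piedmontese and the Wagyu fetus of 60 days and at 13.23, 13.29, 13.49 and 13.61 in 4 fetuses of 135 days, with GP672 at 8.98. At 195 days the 5 fetuses lay at 13.81, 14.34, 14.38, 14.53 and 14.58. The 6 newborn calves ranged from 15.17 to 15.99 with a median of 15.55, above every fetus. From 3 to 30 months all 46 values lay between 15.41 and 16.81, and the means per age between 16.09 ± 0.33 at 3 months (SD, n = 8) and 16.45 ± 0.32 at 25 months (n = 8). Between fetal muscle and muscle from 3 to 30 months TNNT1 rose by 2.82 (SE 0.20, 7.06-fold, adjusted p = 3.7e-20) and the 2 stages did not overlap. Without GP672 the rise was 2.60 (SE 0.11). The steps that passed were 135 to 195 days, by 1.63 (SE 0.33, adjusted p = 0.00015) or 0.95 without GP672 (SE 0.19, adjusted p = 0.00017), and 195 days to birth, by 1.22 (SE 0.31, 2.33-fold, adjusted p = 0.00055). Birth to 3 months gave 0.55 and passed only without GP672 (adjusted p = 0.096 and 0.0026).

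TNNC1, the slow and cardiac troponin C, made its main step around birth. It measured 15.75 and 16.24 at 60 days, 16.28 to 16.46 in 4 fetuses of 135 days beside 12.34 in GP672, and 16.01 to 16.63 in the 5 fetuses of 195 days. Neither step between these ages passed. The newborn values were 16.41, 17.06 and 17.77 in Piedmontese and 17.46, 17.57 and 17.99 in Wagyu calves, so that the lowest calf lay within the fetal range and the other 5 above it. From 195 days to birth TNNC1 rose by 1.00 (SE 0.29, 1.99-fold, adjusted p = 0.0020), and by the same amount without GP672 (SE 0.19). Means per age after birth ran from 17.30 ± 0.33 at 3 months (SD, n = 8) to 17.75 ± 0.41 at 25 months (n = 8), and no step between neighbouring ages passed. Fetal to post-natal muscle gave a rise of 1.60 (SE 0.18, 3.03-fold, adjusted p = 5.9e-12), or 1.42 without GP672 (SE 0.12).

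**Figure D1:**
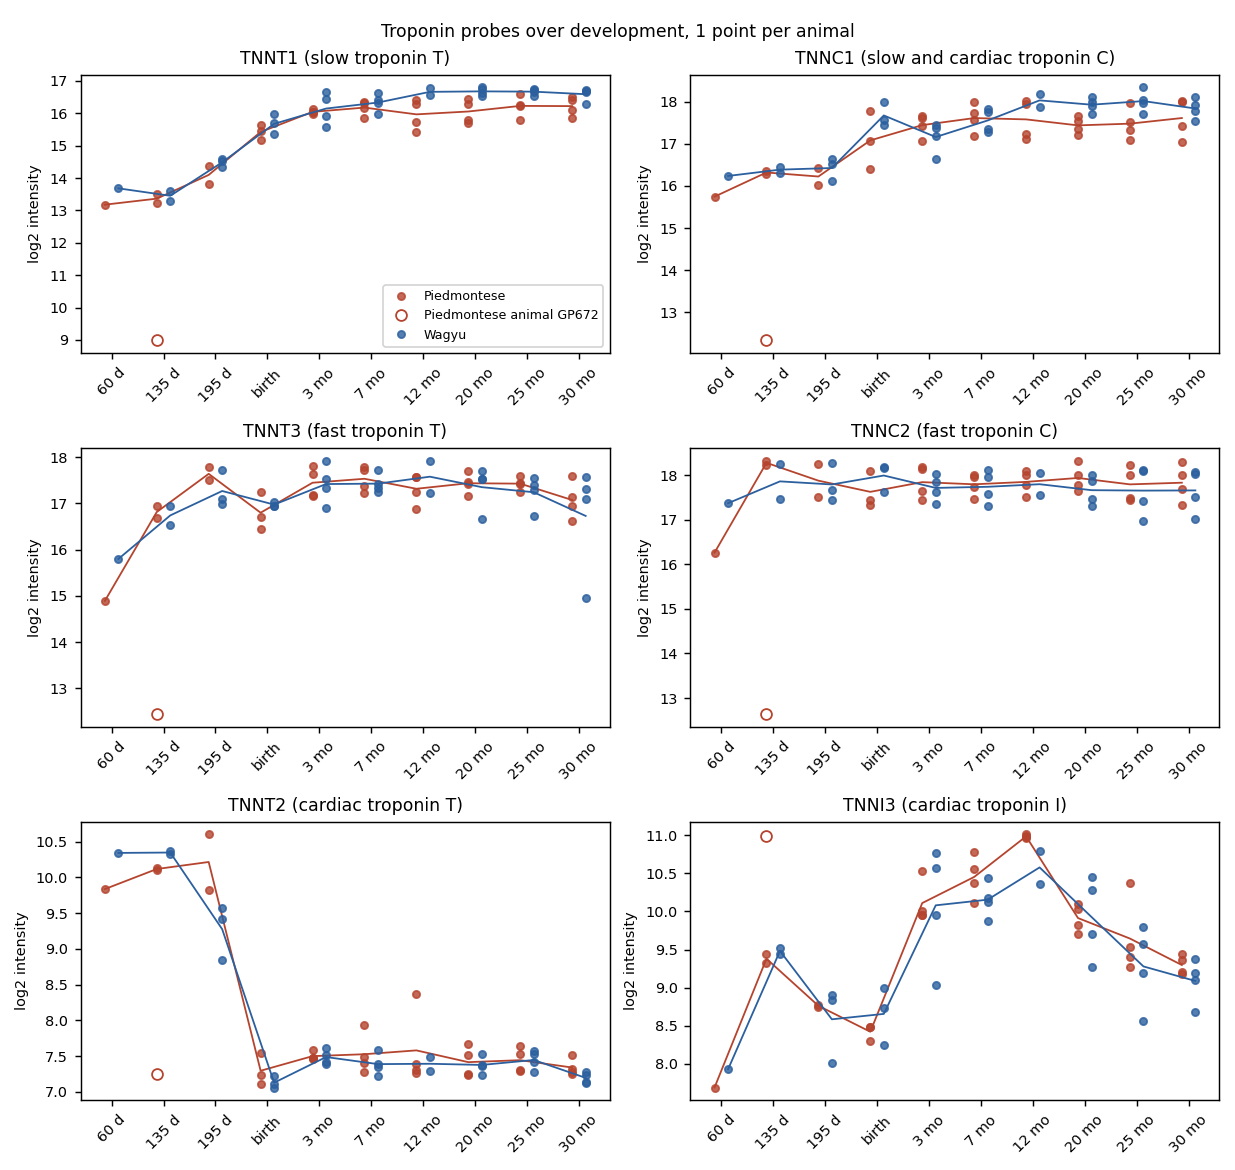
Log2 intensity of each of the 6 members (1 panel each) by time point, from 60 days of gestation to 30 months, with 1 point per animal, coloured by cross, lines through the mean of each cross without GP672, and GP672 as an open red circle. TNNT1 climbs from 13.18 to a plateau between 15.41 and 16.81, TNNT2 drops between 195 days and birth, and GP672 lies far from the other fetuses of 135 days in every panel.

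TNNT3, fast troponin T, measured 14.89 and 15.80 at 60 days, then 16.54, 16.69, 16.94 and 16.94 in 4 fetuses of 135 days, with 12.44 in GP672. The 5 fetuses of 195 days lay at 16.98, 17.10, 17.50, 17.72 and 17.78. From 3 to 30 months the values ran from 14.96, in a single Wagyu animal of 30 months, to 17.92. The step from 60 to 135 days was 0.73 with all libraries (SE 0.51, adjusted p = 0.42) and 1.39 without GP672 (SE 0.37, adjusted p = 0.0050). From 135 to 195 days it was 1.43 (SE 0.39, adjusted p = 0.0048) with all libraries and 0.75 (SE 0.29, adjusted p = 0.059) without GP672, so GP672 decided which of these neighbouring steps passed. Newborn calves ranged from 16.44 to 17.24 (median 16.95). The difference from 195 days to birth was -0.61 (SE 0.37, adjusted p = 0.14) and passed without GP672 at -0.60 (SE 0.27, adjusted p = 0.042), and that from birth to 3 months was 0.55 in both fits (adjusted p = 0.16 and 0.047). Over the whole span from fetal to post-natal muscle TNNT3 rose by 1.02 (SE 0.23, 2.03-fold, adjusted p = 7.9e-05), or 0.81 without GP672 (SE 0.17).

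TNNC2, fast troponin C, had the smallest range of means over the time points. It measured 16.26 in the Piedmontese and 17.37 in the Wagyu fetus of 60 days, and 17.46 to 18.32 in 4 fetuses of 135 days beside 12.64 in GP672. From 195 days on, the means per time point lay between 17.72 and 17.83 at all 8 ages up to 30 months, with SDs of 0.25 to 0.45. The rise from 60 to 135 days was 0.35 with all libraries (SE 0.46, adjusted p = 0.76) and 1.17 without GP672 (SE 0.17, adjusted p = 1e-07). The SE of this rise holds no spread between fetuses of 60 days, which were 1 per cross and stood at 16.26 and 17.37. No later step passed. The rise from fetal to post-natal muscle was the smallest of the 6 members, at 0.46 (SE 0.21, 1.38-fold, adjusted p = 0.044), or 0.20 without GP672 (SE 0.07, adjusted p = 0.014), and it did not pass when GP041A and GP041B were counted as 1 animal or after quantile normalisation. Saturation of some of its spots limits how high this probe could read.

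The 2 cardiac isoforms went opposite ways. TNNT2 was at its highest before birth, at 9.84 and 10.34 at 60 days, 10.10, 10.13, 10.33 and 10.37 in 4 fetuses of 135 days (GP672 7.26), and 8.84, 9.41, 9.57, 9.83 and 10.60 at 195 days. Apart from GP672, all these fetuses lay above the 6 newborn calves, which ranged from 7.06 to 7.54 (median 7.16). The fall from 195 days to birth was 2.54 log2 units, with an estimate of -2.54 (SE 0.23, 5.83-fold, adjusted p = 7.1e-15), the same without GP672 (SE 0.14). Without GP672 it also fell from 135 to 195 days, the estimate being -0.48 (SE 0.16, adjusted p = 0.021), against -0.01 with all libraries. From 3 to 30 months its 46 values lay between 7.12 and 8.37, and fetal to post-natal muscle gave -2.45 (SE 0.14, 5.47-fold, adjusted p = 1.7e-23) or -2.60 without GP672. TNNT2 was above background in 18 of 18 fetal channels, 5 of 6 at birth and 40 of 48 from 3 to 30 months. Levels after birth were thus close to the limit of the assay, where the lowest signal above background was 5.35 to 6.82 in log2 terms, and the offset of 50 added in background correction makes a fold at this level an understatement.

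TNNI3, cardiac troponin I, rose in 2 steps with a fall between them. It measured 7.69 and 7.93 at 60 days and 9.32, 9.44, 9.44 and 9.52 in 4 fetuses of 135 days, with GP672 at 10.99. At 195 days the values were 8.01, 8.75, 8.78, 8.84 and 8.90, and at birth 8.25 to 8.99 (median 8.48). The rise from 60 to 135 days was 1.89 (SE 0.36, 3.71-fold, adjusted p = 5.5e-05), or 1.61 without GP672 (SE 0.33, adjusted p = 0.0002). The fall to 195 days was -1.02 (SE 0.27, adjusted p = 0.0040), or -0.73 without GP672 (SE 0.26, adjusted p = 0.036), and it did not pass after median centring of the channels (-0.93, adjusted p = 0.23) or without replicate 2, the array number that holds GP672 (-0.83, adjusted p = 0.095). Between birth and 3 months TNNI3 rose by 1.56 (SE 0.23, 2.96-fold, adjusted p = 9.4e-08) in both fits, and the 8 animals of 3 months, at 9.04 to 10.76 (median 9.98), were all above the 6 newborns.

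After 3 months TNNI3 was also the member that moved most with age. Its mean was 10.30 ± 0.29 at 7 months (SD, n = 8) and 10.85 ± 0.25 at 12 months (n = 6), then 9.92 ± 0.38 at 20 months, 9.46 ± 0.52 at 25 months and 9.19 ± 0.24 at 30 months (n = 8 each). The fall from 12 to 20 months passed, with an estimate of -0.82 (SE 0.21, 1.76-fold, adjusted p = 0.0072), though the 12 month range of 10.36 to 11.01 reached into the 20 month range of 9.27 to 10.45. It did not pass after median centring of the channels or without replicate 2 or 3. The estimates for 7 to 12 months (0.43, adjusted p = 0.21), 20 to 25 months (-0.46, adjusted p = 0.097) and 25 to 30 months (-0.27, adjusted p = 0.33) did not pass. Among Wagyu animals the mean over ages ran from 9.17 to 10.18 and among Piedmontese from 9.97 to 10.17. The Piedmontese range leaves out GP273, sampled at 1 age only, at 10.77. These means cover different ages, since only 2 Wagyu were sampled at 12 months. The lowest Wagyu animal, GW245, had 5 ages and the highest, GW179, had 6.

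Set against all genes, the counts of members called read as follows. From 60 to 135 days 14.6% of genes passed and 1 of the 6 members (3 without GP672), from 135 to 195 days 22% of genes and 3 members, from 195 days to birth 65.2% and 3, and from birth to 3 months 47% and 1. Between later neighbours 14.8% of genes passed from 3 to 7 months, 9.3% from 7 to 12 months, 9.08% from 12 to 20 months, 9.99% from 20 to 25 months and 18% from 25 to 30 months. Of the members only TNNI3 passed, from 12 to 20 months. In the limma fit 0 members passed in each of the other 4 steps, and at an unadjusted p under 0.05 there were 0, 1, 1 and 0, both times TNNI3. For fetal against post-natal muscle 79.2% of genes passed and all 6 members did, with and without GP672, 5 of them higher and TNNT2 lower. With so large a background the members' share there is not particular to them.

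**Figure D2:**
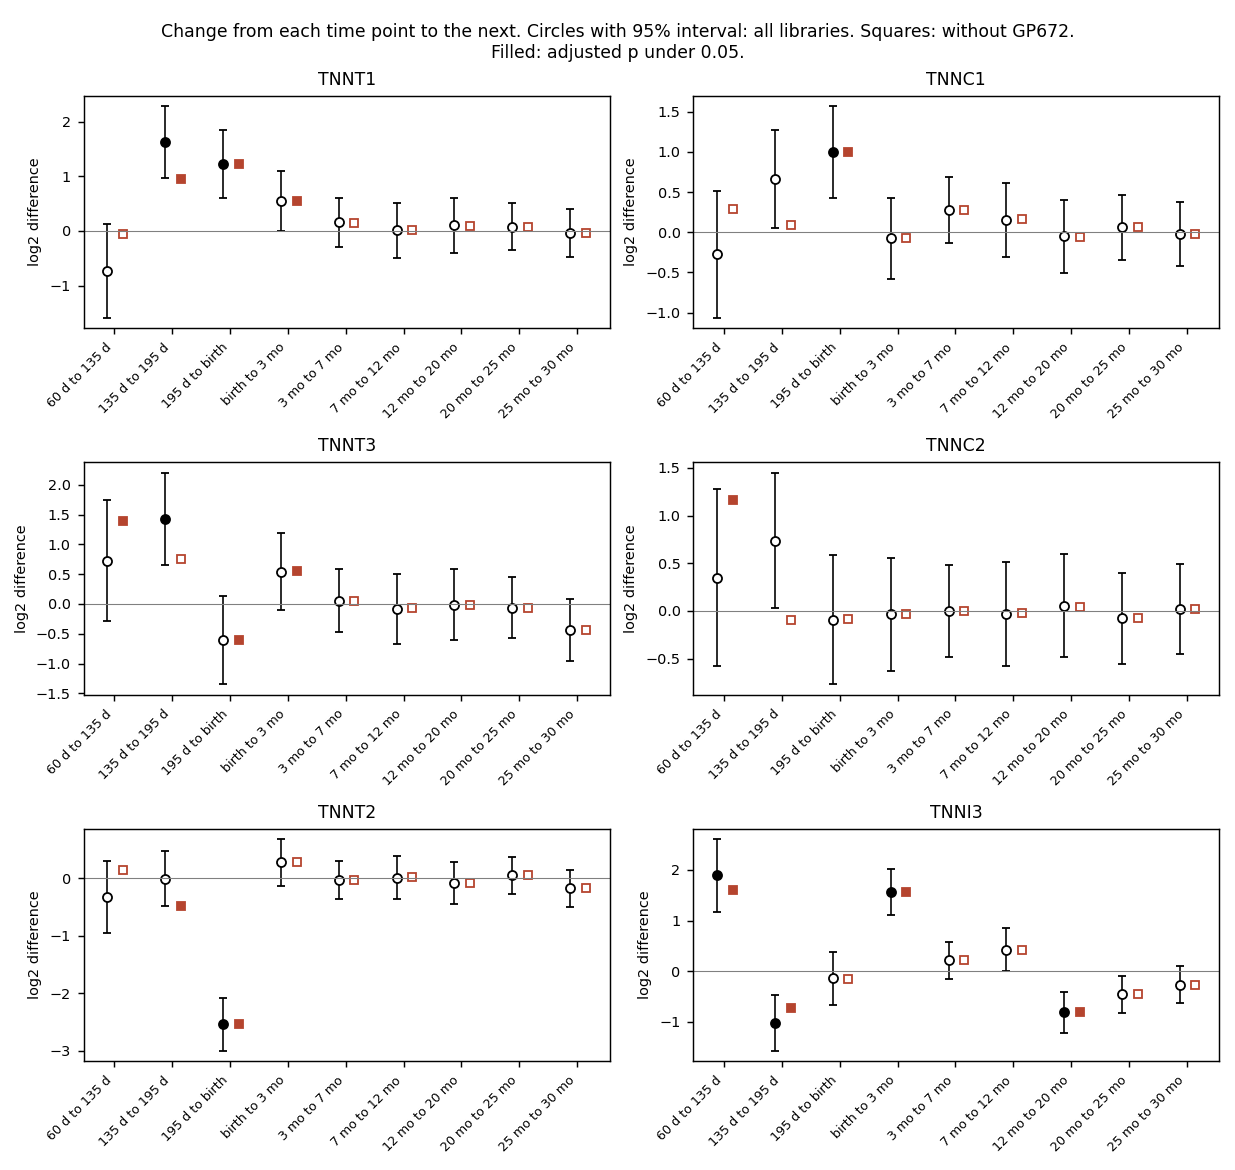
Fitted log2 difference of each member between neighbouring time points with its 95% interval, as circles with all libraries and squares without GP672, filled where the adjusted p is under 0.05. The filled symbols gather in the steps up to 3 months, the steps touching 135 days differ between circle and square, and after 3 months only TNNI3 from 12 to 20 months is filled.

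The isoform switch itself was followed as the log2 difference of 2 isoforms in each animal, expressed as its change from 60 days, since only changes of such a difference can be read. This is a description without a test, and the dye moves it by -0.04 for TNNT1 minus TNNT3, -0.15 for TNNC1 minus TNNC2 and -0.36 for TNNT2 minus TNNT3. Slow minus fast troponin T (TNNT1 minus TNNT3) first moved towards the fast form, to -1.46 ± 0.37 at 135 days (SD, n = 4, without GP672, which had -1.55) and -1.17 ± 0.49 at 195 days (n = 5). It then crossed to the slow side, at 0.58 ± 0.22 at birth (n = 6). The 9 fetuses of 135 and 195 days other than GP672 lay between -1.79 and -0.54, the 6 calves between 0.31 and 0.88, and these did not overlap. The mean was 0.58 ± 0.31 at 3 months, 0.69 ± 0.20 at 7 months, 0.71 ± 0.37 at 12 months, 0.89 ± 0.54 at 20 months, 1.03 ± 0.47 at 25 months and 1.42 ± 1.01 at 30 months.

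The value at 30 months included GW169, a Wagyu animal at 3.67, where the other 7 animals of that age ranged from 0.20 to 1.71. In this library TNNT3 was at 14.96 (16.62 to 17.58 in the others) and TNNC2 at 17.01 (17.32 to 18.30), while TNNT1, at 16.72, was the highest of its age by a small margin and TNNC1, at 17.77, within range. Both fast isoforms were thus low in this library and neither slow one was. Over its 6 ages the same animal ran from 14.96 to 17.92 for TNNT3 and from 17.01 to 18.12 for TNNC2. Its skeletal muscle markers summed to 314029, a little below the 340965 to 408503 of the other channels of that age. Without GW169 the other animals of 30 months averaged 1.09 ± 0.46 (SD, n = 7), close to the mean of 25 months, and the TNNT3 estimate from 25 to 30 months went from -0.43 (adjusted p = 0.26) to -0.16 (adjusted p = 0.73). Another Wagyu library of 30 months, GW179, had adipocyte markers of 107018 against 5708 to 43929 in the others, with all 6 troponins inside the range of the other animals.

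Slow minus fast troponin C (TNNC1 minus TNNC2) took the same course on a smaller scale. Relative to 60 days it was -0.89 ± 0.39 at 135 days (SD, n = 4, without GP672, which had 0.52) and -0.66 ± 0.26 at 195 days (n = 5), then 0.39 ± 0.28 at birth and 0.35 ± 0.21 to 0.85 ± 0.47 from 3 to 30 months. The 9 fetal values of 135 and 195 days ranged from -1.14 to -0.32 and the newborn values from -0.09 to 0.65. Cardiac minus fast troponin T (TNNT2 minus TNNT3) moved in 1 direction, to -1.29 ± 0.27 at 135 days (n = 4, GP672 0.07), -2.51 ± 0.52 at 195 days and -4.42 ± 0.34 at birth. After birth its means stayed between -4.77 and -4.38. From birth on TNNT2 was close to the limit of the assay, which bounds how far this difference could fall.

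**Figure D3:**
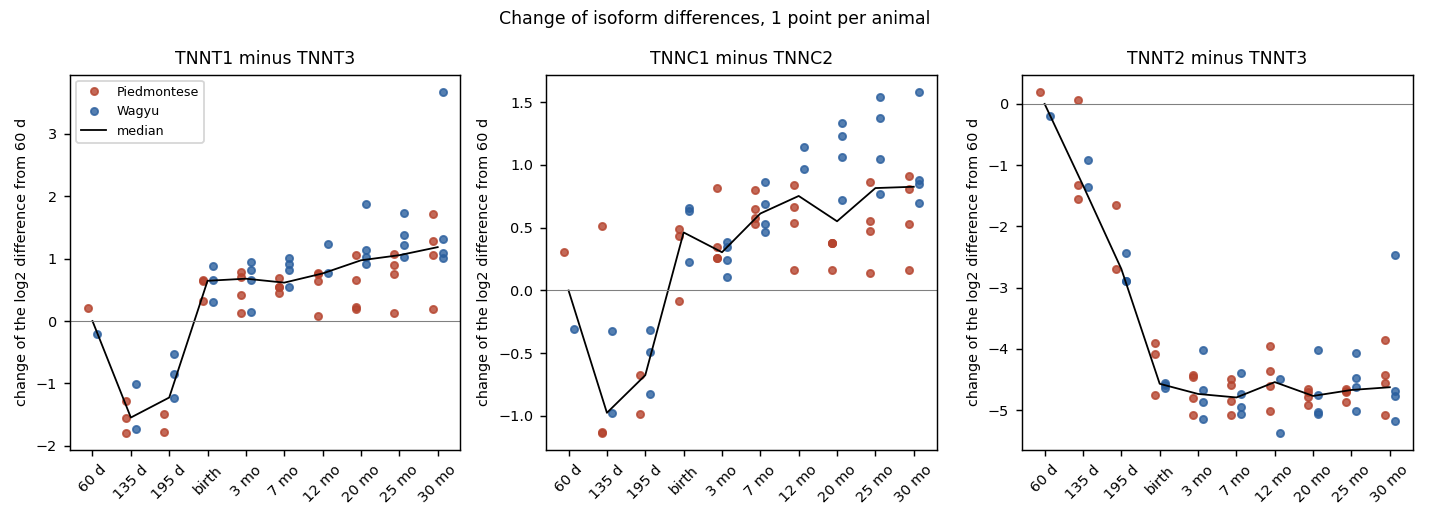
Change from 60 days of the log2 difference between 2 isoforms, per animal (points, GP672 included) and as the median per time point (line), for TNNT1 minus TNNT3, TNNC1 minus TNNC2 and TNNT2 minus TNNT3. The slow minus fast differences dip at 135 and 195 days and lie near or above 0 from birth on, the median of TNNT2 minus TNNT3 falls to -4.57 at birth, and the highest point at 30 months in the first panel is GW169 at 3.67.

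Other genes of the contractile apparatus changed in the same stages. Of 10 tested genes that build the thin filament with troponin, 6 rose and 3 fell between fetal and post-natal muscle, with a median difference of 1.04 where the median over all genes was 0.03. In that comparison 79.2% of all genes passed, so nothing particular to these lists is read from the number called. Risers included TMOD4, a cap of the filament's pointed end, at 5.33 (SE 0.14), LMOD2, which lengthens that end, at 4.00 (SE 0.22), NEB, the nebulin ruler, at 2.80 (SE 0.14), and CFL2, muscle cofilin, at 1.58 (SE 0.13). ACTC1, cardiac actin, fell, at -5.00 (SE 0.54), as did TPM4, a non-muscle tropomyosin, at -1.92 (SE 0.13). Of 7 embryonic and neonatal muscle genes 6 fell and none rose, with a median of -5.59. The embryonic myosin MYH3 fell, at -8.37 (SE 0.32), with MYL4, the embryonic and atrial light chain, at -7.79 (SE 0.22), CHRNG, the fetal subunit of the acetylcholine receptor, at -6.62 (SE 0.24), and the neonatal myosin MYH8 at -5.59 (SE 0.18).

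Among 9 tested fast fibre genes 7 rose, none fell, and the median was 1.98, in the same comparison where 79.2% of all genes passed. MYBPC2, fast myosin-binding protein C, rose by 6.16 (SE 0.12), ACTN3, the alpha-actinin of fast fibres, by 5.54 (SE 0.15) and the fast myosin MYH1 by 3.42 (SE 0.23), all by more than the fast troponins. Of 6 slow fibre genes 5 rose and 1 fell, with a median of 1.04. MYL3, the slow light chain, rose 5.29-fold (SE 0.30 in log2 units), ATP2A2, the slow calcium pump, by 1.67 (SE 0.11) and the slow myosin MYH7 by 1.36 (SE 0.27), while CASQ2, cardiac and slow calsequestrin, fell at -2.66 (SE 0.21). Directions counted without GP672 were 6 and 3, 5 and 1, and 7 and 0 for the thin filament, slow and fast lists, and 0 and 7 for the embryonic list. From 195 days to birth alone, thin filament genes gave 5 higher and 3 lower, slow genes 2 and 1, fast genes 3 and 0, and embryonic genes 0 and 6, where 65.2% of all genes passed. Without GP672 these counts were 5 and 4, 3 and 1, 5 and 1, and 0 and 6.

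Across the 26 condition means, which include the diet groups, the genes most like each member by Pearson's r were chosen as a description only, since neighbouring conditions share animals and slides. TNNT1 ran closest to MB, myoglobin (r = 0.970), then TNNC1 (0.968) and TTN, titin (0.961). TNNT2 ran with ANKRD50 (0.987), CCDC141 (0.981) and MYL4 (0.979). TNNT3 ran with TPM1, a skeletal tropomyosin (0.954), PGAM2, the muscle glycolytic mutase (0.947), and COX6A2, the muscle cytochrome oxidase subunit (0.942). TNNC2 ran with STAC3 (0.884), which couples excitation to contraction, MYL11, the fast regulatory light chain (0.868), and the transcript BF652500 (0.856). TNNC1 had TNNT1 first, followed by LOC514950 (0.934). The best for TNNI3 were lower, at 0.870 (BM086892), 0.868 (CIITA) and 0.860 (SLC39A13). Without GP672 the closest genes became PLN for TNNT1 (0.979), AK1 for TNNT3 (0.940), PIR for TNNC1 (0.953), USF1 for TNNC2 (0.797) and HJV for TNNI3 (0.913), and ANKRD50 stayed closest to TNNT2 (0.990). Between members, TNNT1 and TNNT2 ran against each other (r = -0.839, or -0.909 without GP672), while TNNC1 and TNNC2 correlated at 0.670, or 0.325 without GP672. Over the 12 post-natal means alone the r of TNNC1 and TNNC2 was -0.450, and that of TNNT1 and TNNT2 -0.600.

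The arrays set Piedmontese against Wagyu crosses, and in the fit described above no member passed at any stage. Fits that compare within arrays gave calls with all libraries kept. They hold no animal term, so repeated measures of 1 animal counted as separate replicates. This covers the arrays of the same fetuses at 60 days and the repeated biopsies after birth. With the array as a block 5 members passed at 135 days, 3 over the fetal ages, 1 after birth and 1 for the change from fetal to post-natal muscle, and with the deposited ratios 3, 3, 0 and 1. At 135 days the estimates for Piedmontese minus Wagyu were -1.73 for TNNT1 (adjusted p = 0.13), -1.80 for TNNC2 (0.14), -1.67 for TNNC1 (0.11), -1.58 for TNNT3 (0.28), -1.24 for TNNT2 (0.14) and 0.41 for TNNI3 (1.00). These rested on GP672. Without it they were -0.33, -0.09, -0.49, -0.20, -0.26 and -0.19, all with an adjusted p of 1. With the slide as a block and all libraries kept, TNNC1 (-1.62, adjusted p = 0.025), TNNC2 (-1.82, 0.031), TNNT1 (-1.63, 0.031) and TNNT2 (-1.21, 0.039) passed. Of all genes 0.0271% passed at 135 days. At 195 days 0.0204% passed, and TNNT2 measured 9.83 and 10.60 in Piedmontese against 8.84, 9.41 and 9.57 in Wagyu fetuses. The groups did not overlap, but the difference of 0.92 (95% interval 0.24 to 1.60) had an adjusted p of 1.00, or 0.10 without GP672. How many of all genes were without overlap between these fetuses was not counted. Averaged over the fetal ages 0.862% of genes passed, and the members' estimates lay between -0.90 and 0.12 with all libraries and were at most 0.39 in size without GP672.

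At birth 1.42% of genes and 0 members passed, with estimates from -0.37 (TNNC1) to 0.21 (TNNT2). Over the 6 ages from 3 to 30 months 0.0136% of genes passed. TNNT1 was higher in Wagyu by the mean at 6 of 6 ages, with an estimate of -0.38 for Piedmontese minus Wagyu (95% interval -0.83 to 0.06, adjusted p = 1, or 0.45 without GP672). Groups did not overlap at 12 months, when 4 Piedmontese averaged 15.97 and 2 Wagyu 16.66, or at 20 months, with 16.05 and 16.68. TNNC1 was higher in Wagyu at 4 of 6 ages without overlap at 20 months (17.44 and 17.93), and TNNC2 was higher in Piedmontese at all 6. For TNNC1 minus TNNC2 the change from 60 days at 20 months was 0.32 ± 0.11 in Piedmontese and 1.09 ± 0.27 in Wagyu (SD, n = 4 each), and for TNNT1 minus TNNT3 0.53 ± 0.41 and 1.24 ± 0.44. Those isoform differences were not tested between crosses. TNNI3 was without overlap at 12 months, at 10.98 in Piedmontese and 10.58 in Wagyu. TNNT2, TNNT3 and TNNC2 overlapped at every age from 3 to 30 months. The share of all genes without overlap at these ages was not counted, so no such gap is read as particular to a member. The change of the cross difference from fetal to post-natal muscle passed for 0.536% of genes and 0 members, the closest being TNNC2 at 1.05 (adjusted p = 0.89), or 0.49 without GP672 (adjusted p = 0.21). At an unadjusted p under 0.05 the limma fit gave 5 members at 135 days (0 without GP672), 1 at 195 days, 3 over the fetal ages (2 without GP672), 0 at birth, 0 after birth (1 without GP672) and 1 for the change. A missed threshold does not show that the crosses were alike, and the intervals at single ages span more than 1 log2 unit.

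**Figure D4:**
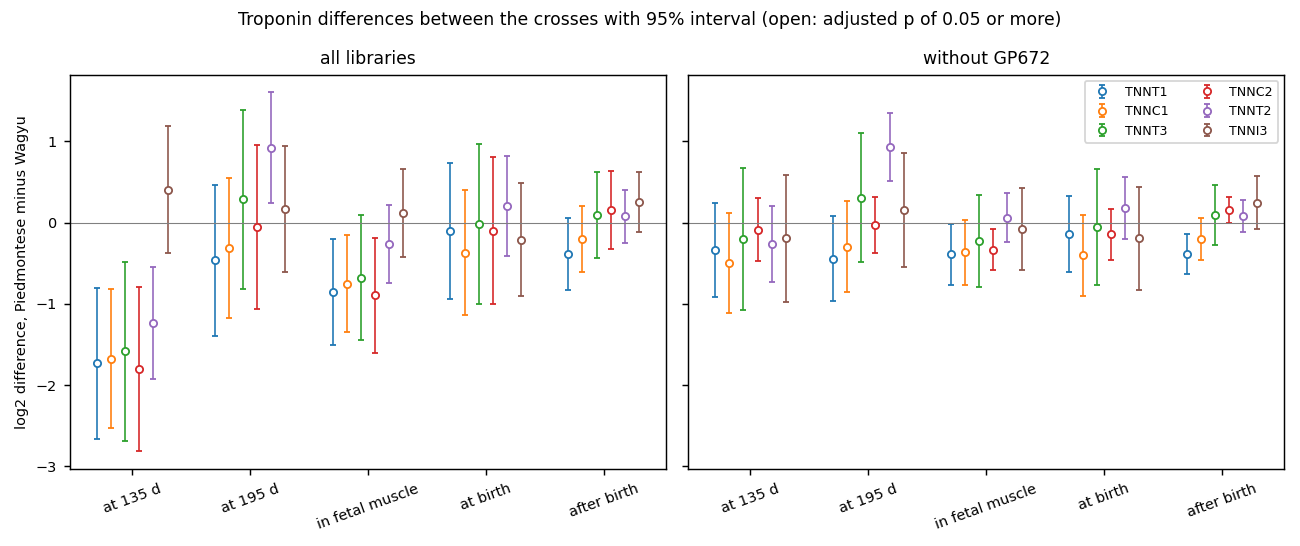
Fitted Piedmontese minus Wagyu log2 difference of each member with its 95% interval at the stages compared, with all libraries (left) and without GP672 (right). Open symbols mark an adjusted p of 0.05 or more, which holds for every symbol in this fit, and the low values at 135 days on the left are near 0 on the right.

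Between the diets, members passed at time 1. TNNT3 measured 16.06, 16.14 and 16.96 in the 3 weight loss animals and 17.62, 17.76, 17.82 and 18.64 in the 4 on weight growth. TNNT1 measured 15.25, 15.40 and 15.63 against 15.91, 16.40, 16.46 and 17.13. For these 2 members every weight loss value was below every weight growth value. The share of all genes separated in this way was not counted. TNNI3 measured 8.71, 8.99 and 10.04 against 9.72, 9.94, 10.38 and 10.59, with overlap. Weight loss minus weight growth was -1.63 for TNNT3 (SE 0.46, 3.09-fold, adjusted p = 0.0056), -1.10 for TNNT1 (SE 0.39, 2.15-fold, adjusted p = 0.028) and -0.92 for TNNI3 (SE 0.32, 1.89-fold, adjusted p = 0.028), or -1.61, -1.08 and -0.93 without GP672. So 3 of the 6 members passed where 25.8% of genes did. Slow and fast troponin T were thus both lower, and both troponin C genes gave small differences, -0.14 for TNNC1 (95% interval -0.85 to 0.58) and -0.20 for TNNC2 (-1.04 to 0.64), with TNNT2 at -0.30 (-0.87 to 0.27). None of these calls passed after quantile normalisation or median centring of the channels, while leaving out the arrays numbered 1 ended all 3, and leaving out those numbered 4 ended all but that of TNNT3. TNNT1 minus TNNT3, as its change from 60 days, was 0.96 ± 0.34 on weight loss at time 1 (SD, n = 3). On weight growth it was 0.43 ± 0.27 (n = 4). TNNC1 minus TNNC2 was 0.74 ± 0.22 on weight loss and 0.71 ± 0.41 on weight growth. These isoform differences were not tested between diets.

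At diet time 0, 7.25% of genes and 0 members passed, and the estimates lay between -0.22 and 0.16. The labels do not say whether time 0 came before the diets. TNNT3 then measured 15.88, 17.37, 17.47 and 17.60 in the weight loss group and 16.89, 17.16, 17.43 and 17.72 in the weight growth group. At time 2, 0.0407% of genes and 0 members passed, and TNNT3 measured 17.58 and 17.64 against 17.07 and 17.23, with an estimate of 0.70 (95% interval -0.47 to 1.88, adjusted p = 1). At an unadjusted p under 0.05 there were 0 members at both times, or 1 at time 2 without GP672. For TNNT1 minus TNNT3 the change from 60 days was 0.50 on weight loss and 0.31 on weight growth at time 0. At time 2 it was 0.23 and 0.94. For TNNC1 minus TNNC2 it was 0.64 and 0.32 at time 0, then 0.20 and 1.10 at time 2. Neither was tested between diets, and time 2 had 2 animals per diet. The change of the diet difference from time 0 to 1 passed for 20.9% of genes and 0 members, with 3 members at an unadjusted p under 0.05: TNNT3 at -1.41 (adjusted p = 0.057), TNNI3 at -0.92 (0.082) and TNNT1 at -1.07 (0.091). Without GP672 TNNT3 (-1.39, adjusted p = 0.0083) and TNNT1 (-1.05, adjusted p = 0.0025) passed, and with the slide as a block TNNT3 did (-1.40, adjusted p = 0.042), as it did without GW169 at 30 months (-1.39, adjusted p = 0.036). From time 1 to 2 the change passed for 7.82% of genes and for TNNT3, at 2.33 (SE 0.67, adjusted p = 0.019). This call was lost without the animal block (adjusted p = 0.075), after quantile normalisation (0.28), after median centring (0.97) and without replicate 1 (0.31). Without GP672 TNNT3 (2.30), TNNT1 (1.01, adjusted p = 0.036) and TNNC2 (0.69, adjusted p = 0.031) passed. Both changes use the animals of time 1 and are not independent of each other or of the difference at that time.

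**Figure D5:**
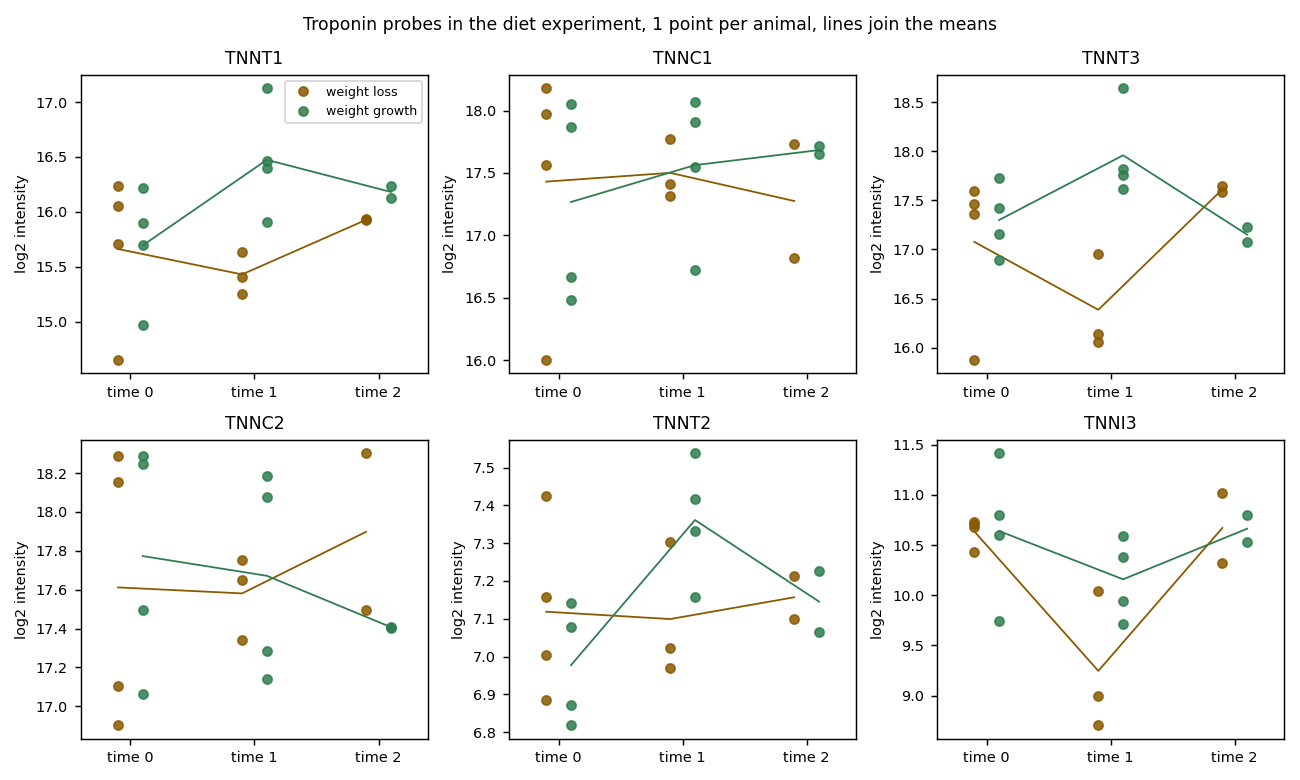
Log2 intensity of each member at diet times 0, 1 and 2 in weight loss and weight growth cattle, 1 point per animal, with lines joining the group means. The groups separate at time 1 for TNNT3 and TNNT1, where the weight loss animals reach at most 16.96 and 15.63, and mix at time 0.

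At time 1 some other contractile genes were lower on weight loss as well. In this comparison 25.8% of the 14739 genes passed with all libraries, 1914 higher and 1894 lower, and 27.5% passed without GP672. Of the fast fibre list 5 of 9 were lower and none higher, with a median of -1.29 where that over all genes was -0.00069, among them MYBPC2 at -1.98 (SE 0.24), MYH1 at -1.95 (SE 0.45) and ACTN3 at -1.57 (SE 0.30). Of the slow list 3 of 6 were lower (4 without GP672), with MYL3 at -4.05 (SE 0.58) and CASQ2 at -1.60 (SE 0.41), and of the thin filament list 4 of 10 (6 without GP672), with TPM4 at -1.08 (SE 0.25). Of 7 embryonic genes 0 passed (2 lower without GP672). Marker sums of other cell types moved with the diet too. Connective tissue markers summed to 7912 to 13106 in the weight loss channels and 45739 to 125384 in the weight growth channels, endothelial markers to 4137 to 4783 against 5987 to 9504, and immune markers to 2092 to 3066 against 3682 to 5525. Skeletal muscle markers summed to 222795 to 342723 against 404212 to 827475. The part of these in the troponin differences was not tested.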

How the data were processed

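Total RNA was labelled, hybridised and scanned by the authors, and the deposited feature files, made with Agilent Feature Extraction 9.5.1 according to the submitters' processing notes, hold the mean intensity and the median background intensity of each spot in each dye. The deposited series table holds log10 ratios of Cy5 over Cy3, identical to those of the feature files (0 of 44407 spots of 48 arrays differed by more than 1e-06), which served as an alternative. Each channel's condition, animal, dye and slide came from the labels.

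Background was corrected by normexp (offset 50), arrays were normalised by loess and between arrays by Aquantile in limma 3.58.1 (R 4.3.3). Control and outlier-flagged spots (2 to 797 per array, median 15) had weight 0 in loess and were then left out. Log2 intensities of the 2 spots were averaged, and probes well above background in at least 24 of 96 channels were kept (15822 of 21475 probes, 14739 genes). Gene names came from the files, and 16710 probes were matched to RefSeq. Channels were averaged to 83 values of 35 animals, and 26 condition means plus a dye term were fitted with the animal as a random block (correlation 0.257), empirical Bayes moderation and Benjamini-Hochberg adjustment. The animal codes are the only statement that samples are separate animals. The number of arrays limits the precision. The fits were tested on simulated data with planted changes. Probe sequences were compared in Python 3.11.15.

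Alternatives were another background correction, quantile normalisation, median centring of channels, other filters, no animal block, the array or slide as a block, GP041A and GP041B as 1 animal, the brightest probe per gene, the deposited ratios and each replicate left out. GP672, GW169 and GW179 were each left out after the data had been seen. All members were named, with up to 6 genes of each list, those that differed most between fetal and post-natal muscle, and the 3 genes most like each member, of which 1 is not reported here. Members and lists were chosen with earlier results of these data known. TNNT3 is on a gene list that the study drew from these samples. So are TPM1, PGAM2 and AK1, named above as close to TNNT3, and MYH1, ACTN3, MYBPC2, ATP2A1 and MYOZ1 of the fast list. NEB, TPM1 and TPM2 of the thin filament list are on it too. Likeness between these genes is therefore not independent of that list. The authors' normalised condition values were not used here.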

Additional observations from a re-analysis of the deposited data

Results flagged for a closer look

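Of 84 groups of 4 animals or more, 1 per member, time point and group, 6 (7.14%) had an animal far from the others of its group, where chance gives about 1 in 20. TNNT1 stood at 16.27 in a Wagyu animal of 30 months, below the others at 16.66 to 16.72. TNNT3 stood at 16.65 in a Wagyu animal of 20 months, below 17.53 to 17.69, and at 15.88 in a weight loss animal at diet time 0, below 17.37 to 17.60. TNNT2 stood at 7.59 in a Piedmontese animal of 3 months, above 7.45 to 7.48, and at 8.37 in a Piedmontese animal of 12 months, above 7.26 to 7.39. The 2 spots of the TNNT2 probe differed by a median of 0.175 log2 units, more than the gap at 3 months. TNNI3 stood at 10.53 in a Piedmontese animal of 3 months, above 9.95 to 10.01. Groups of 3 or fewer, which hold GP672, were not examined in this way.

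The diet difference of TNNT3 changed between times 1 and 2 by 2.33 log2 units (SE 0.67, adjusted p = 0.019 in limma), from lower to higher in the weight loss group. The fit without the animal block called 0 members for this change.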

How the results depend on the processing

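No paired analysis was possible by array number because the array numbers were given in accession order and pair no animals across time points. Animals sampled at several time points are linked by their codes, and the main fit used this link through the animal block. Within an array the 2 crosses or diets are paired, and the array block and the deposited ratios use this. Neither of these fits holds an animal term, so repeated measures of 1 animal count there as separate replicates. The number of members called (6 could be) was within 1.5 times its main value in 330 results under another setting, lower in 12 and higher in 23. Without GP672 it was 3 in place of 1 from 60 to 135 days and from birth to 3 months, 2 in place of 0 for the diet change from time 0 to 1 and 3 in place of 1 for that from time 1 to 2. Median centring of channels gave 1 in place of 3 from 135 to 195 days, 0 in place of 1 from 12 to 20 months and for the diet change from time 1 to 2, 1 and 3 in place of 0 from 20 to 25 and from 25 to 30 months, and 0 in place of 3 for diet at time 1. Quantile normalisation gave 0 for diet at time 1 and for the change from time 1 to 2, as did no animal block for that change. For the crosses at 135 days (main 0) the array block gave 5, the deposited ratios 3 and the slide block 4. The array block and the ratios gave 3 and 3 for the crosses in fetal muscle, 1 and 1 for the cross difference after birth against fetal muscle and 1 and 1 for the diet change from time 0 to 1, where the slide block also gave 1, and the array block gave 1 for the crosses after birth. The slide block could not be fitted for birth to 3 months, 20 to 25 months or fetal to post-natal muscle. Leaving out each array number in turn gave 1 to 3 members from 60 to 135 days, 0 to 1 from 12 to 20 months and from 20 to 25 months, 0 to 5 for the crosses at 135 days, 0 to 3 for diet at time 1, 0 to 1 for the diet change from time 0 to 1 and 0 to 2 for that from time 1 to 2. The cause was not tested.

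Differences of single members were unchanged in direction and call in 379 results, lost their call in 29, gained one in 17 and turned in 3. The last were at 135 days between the crosses, all in fits without GP672: TNNI3 gave -0.19 without GP672, and with each array number left out it ran from -0.17 (without replicate 2, which holds GP672) to 0.70 and TNNC2 from -2.82 to 0.058 (without replicate 2). TNNC2 from fetal to post-natal muscle passed in neither of the settings with GP041A and GP041B as 1 animal, quantile normalisation or without replicate 4. TNNI3 from 12 to 20 months did not pass without replicates 2 or 3, nor from 135 to 195 days without replicate 2 or after centring. Without GW169 at 30 months the count was 1 in place of 0 for the diet change from time 0 to 1, through the shared spread, and without GW179 at 30 months no count of members changed. TNNT2 after birth and in the diet animals is limited by its signal over background.

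The share of genes called moved most with median centring, beyond 1.5 times in 20 of 21 comparisons. Over the settings it ran from 4.07% to 28.3% for 60 to 135 days (14.6%), 3.15% to 28.8% for 135 to 195 days (22%), 41.4% to 69.5% for 195 days to birth (65.2%), 16.1% to 48.7% for birth to 3 months (47%), 72.6% to 84.4% for fetal to post-natal muscle (79.2%) and 5.35% to 37.8% for diet at time 1 (25.8%). Over later ages it ran from 0.305% to 20.1% (3 to 7 months), 0.21% to 17.3% (7 to 12), 0.0407% to 15.9% (12 to 20), 1.9% to 15.8% (20 to 25) and 8.42% to 71.3% (25 to 30). For the crosses it ran from 0% to 5.11% at 135 days, 0% to 0.266% at 195 days, 0.183% to 5.11% in fetal muscle, 0.0678% to 8.68% at birth, 0% to 7.42% after birth and 0.0611% to 4.32% for the change. Diet ranges were 0.617% to 16.6% at time 0, 0.0136% to 4.81% at time 2, 0.76% to 26.3% for the change from time 0 to 1 and 0.142% to 22.4% for that from 1 to 2. With centring, and leaving aside comparisons with at most 45 genes then called, the share of called genes that were higher was 31.5% in place of 49.2% from 60 to 135 days, 30.8% in place of 47.6% from birth to 3 months, 2.54% in place of 42.8% from 20 to 25 months, 73.0% in place of 56.1% from 25 to 30 months, 61.04% in place of 50.3% for diet at time 1 and 68.8% in place of 49.4% for the diet change from time 0 to 1.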
